A study of Mus musculus with 2 samples.

Results

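Fatty acid oxidation and peroxisome genes were examined in nephron progenitor cells that lack p53 and in cells that keep it. The genes were taken by name: a protein-coding row counted when its symbol began with Acad, Acsf, Acsl, Acsm, Acss, Hadh, Ech, Etf or Ppar, or was a numbered Cpt, Eci, Pex, Acaa, Acox, Decr or Acot gene, or Ehhadh. The deposited table holds 53 such genes among 10627 listed genes, of which 9388 are protein coding. One of them, Etf1, is caught by the spelling alone, since it encodes a translation termination factor. The other 52 encode enzymes, import factors and regulators of fatty acid metabolism.

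The knockout cells (KO) carried the Six2CreGFP transgene and floxed p53 alleles (Six2CreGFP+;p53f/f), and the wild-type cells (WT) carried the same transgene with intact p53 (Six2CreGFP+;p53+/+). Both were Six2+ cap mesenchyme cells sorted by flow cytometry from embryonic kidneys at embryonic day 15.5, on a mixed CD1 and C57BL background. The Six2 promoter drives Cre and GFP in the nephron progenitors, the self-renewing cells that form the tubules and filtering units of the kidney, so p53 is deleted in these cells and their descendants and not in the rest of the embryo. Each genotype has 1 RNA sequencing library, and how many embryos went into a library is not given in the sources used here. With 1 library per genotype no difference below has a replicate check or a test, and "higher" and "lower" describe these libraries.

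Fatty acids are burned in steps. A synthetase joins the acid to coenzyme A, the carnitine shuttle carries the product into the mitochondrion, and a cycle of dehydrogenase, hydratase, second dehydrogenase and thiolase removes acetyl-CoA units. Peroxisomes run a parallel cycle on very long and branched chains and import their enzymes through proteins called peroxins, while PPAR nuclear receptors and their coactivators raise transcription of many of these enzymes. The mature proximal tubule of the kidney relies heavily on this pathway for energy, whereas progenitor cells of the cap mesenchyme are known for a more glycolytic metabolism.

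Read densities in the table have the properties of RPKM, reads scaled to gene length and sequencing depth, so levels can be compared between genes. Steps in the values imply about 85600000 reads in KO and 91200000 in WT, which puts the genes of the set at a median of 2325 reads in KO and 2747 in WT. Trp53, the gene for p53, had 5.38 RPKM in KO and 33.9 RPKM in WT, which is a ratio of 0.158 (0.151 to 0.166). Such bounds are exact 95% limits that include counting error alone. This density covers the whole gene, including parts the floxed allele may leave in place. Six2, the gene that marks these cells, had 509 RPKM in KO and 482 RPKM in WT. Of 12 nephron progenitor markers 6 were lower in KO, with a summed density of 1257 RPKM in KO and 1201 RPKM in WT. Markers of other kidney and blood cells were present in both libraries in spite of the sort and all but 1 were lower in KO; their values stand beside the results they move with. Every row of the authors' deposited table passed a corrected p-value of 0.05 when they set the libraries against each other, so all 53 counting intervals exclude a ratio of 1 and this is no result about the set. Of 90 protein-coding symbols of the GENCODE vM21 gene models that fit the naming rule, 37 have no row in the table. Such symbols, among them Ppara, Hadhb and Etfa, were not analysed here. They include 5 acyl-CoA dehydrogenases, 3 peroxisomal oxidation enzymes and 6 thioesterases. Role groups below therefore count listed genes alone.

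Most of the set was slightly lower in KO. Of the 53 genes, 46 had a lower density in KO, which is 86.8% of the set, against 63.8% of all listed genes. On the scale used throughout, log2(KO + 1) minus log2(WT + 1), the median difference was -0.16 for the set and -0.11 for all listed genes. This scale understates the differences of genes with low densities. The summed density of the 53 genes was 628 RPKM in KO and 680 RPKM in WT. Only 2 genes (3.77%), Acsm2 and Acaa1b, were at least 1.5-fold lower in KO, against 5.5% of all listed genes. None was at least 1.5-fold higher, against 0.96% of all listed genes. The count of 2 depends on the added constant, and by the plain ratio of the densities it was 12 (22.6%), against 22.6% of all listed genes. With a lower bar of 0.32 on the log2 scale 12 genes (22.6%) were lower, against 15.9% of all listed genes, and 2 genes (3.77%), Acsl4 and Ppargc1b, were higher, against 5.63% of all listed genes. The set therefore leaned lower more often than the table as a whole, while its share of genes at least 1.5-fold lower was at or under the background.

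**Figure D1:**
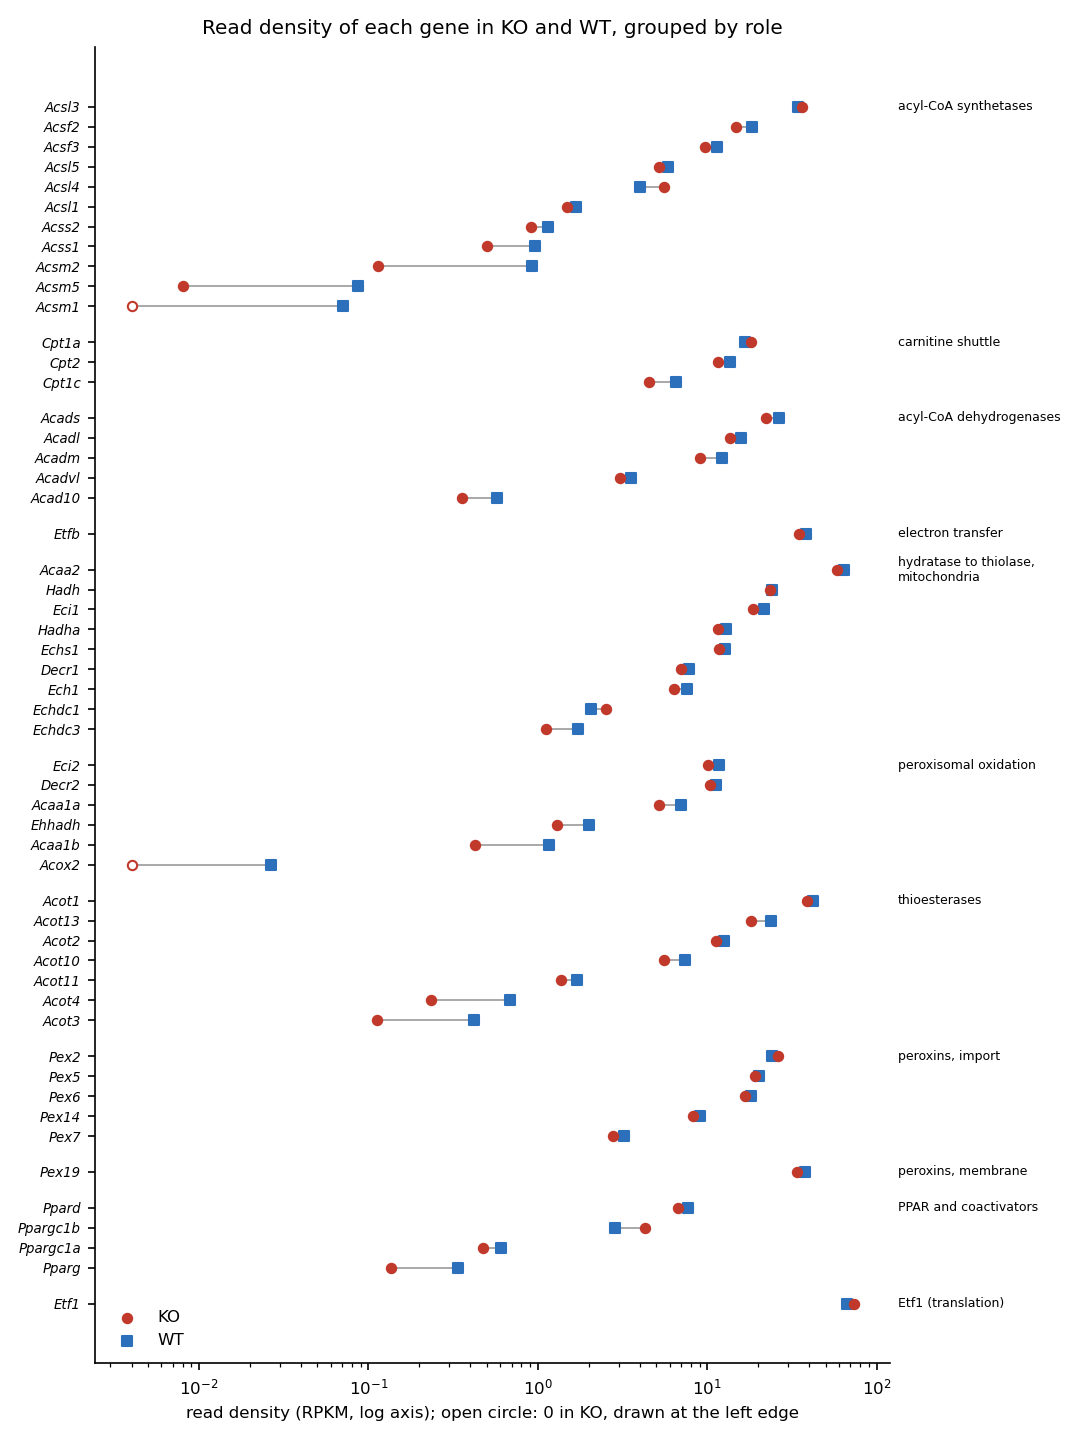
Read density in RPKM (log axis) of each of the 53 genes in KO (circles) and WT (squares), 1 library each, in blocks by role with the highest mean density first. The circle lies left of the square for 46 genes, and the open circles mark Acsm1 and Acox2, which are at 0 in KO and are drawn left of all other points.

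The 4 genes at the edges of the set show how different its members are. Acsm2, a medium-chain acyl-CoA synthetase known from liver and kidney, had 0.114 RPKM in KO and 0.923 RPKM in WT, the lowest difference of the set at -0.79. Acaa1b, a peroxisomal thiolase, had 0.426 RPKM in KO and 1.16 RPKM in WT, a difference of -0.60. Both of these are near the bottom of the density range. Acsl4, a long-chain synthetase with a preference for arachidonic acid, had 5.53 RPKM in KO and 4.01 RPKM in WT, a difference of 0.38. Ppargc1b, a coactivator of PPAR and estrogen-related receptors, had 4.31 RPKM in KO and 2.85 RPKM in WT, a difference of 0.47.

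The promoter windows of 3 of these genes are shown because they contrast in CpG content, a feature that went with density in the set. Each runs from 250 bases before to 50 bases after the RefSeq start, 5′ to 3′ on the gene's strand in GRCm38.p6, with CpG dinucleotides in capitals. The Acsm2 window, the first of 2 that RefSeq gives, is chr7:119554090-119554389 on the plus strand and holds 1 CpG. The Acaa1b window is chr9:119157044-119157343 on the minus strand and holds 4. The Acsl4 window is chrX:142390486-142390785 on the minus strand and holds 33.
Acsm2: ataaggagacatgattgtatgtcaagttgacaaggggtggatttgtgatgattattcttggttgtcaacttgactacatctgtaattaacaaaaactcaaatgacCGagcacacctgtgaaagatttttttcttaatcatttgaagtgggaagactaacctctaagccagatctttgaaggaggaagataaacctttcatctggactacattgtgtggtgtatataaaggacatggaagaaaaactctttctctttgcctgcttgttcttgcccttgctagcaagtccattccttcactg
Acaa1b: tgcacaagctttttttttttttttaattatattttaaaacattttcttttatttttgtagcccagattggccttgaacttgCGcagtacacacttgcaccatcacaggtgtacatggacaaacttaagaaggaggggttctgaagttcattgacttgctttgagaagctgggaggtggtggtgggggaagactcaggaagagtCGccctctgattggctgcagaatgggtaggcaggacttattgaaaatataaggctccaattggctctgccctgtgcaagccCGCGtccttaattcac
Acsl4: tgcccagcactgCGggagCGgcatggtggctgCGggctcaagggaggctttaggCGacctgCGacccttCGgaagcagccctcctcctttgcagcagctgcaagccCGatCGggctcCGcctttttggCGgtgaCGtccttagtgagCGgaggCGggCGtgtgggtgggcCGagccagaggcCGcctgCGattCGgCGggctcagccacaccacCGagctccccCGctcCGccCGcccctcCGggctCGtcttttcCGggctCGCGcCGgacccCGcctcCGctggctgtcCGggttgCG

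RefSeq windows were matched by symbol for 46 of the 53 genes, 56 windows in all. In 13 genes no window held 10 or more CpG, and these had a median density of 0.539 RPKM over both libraries, against 10.6 RPKM for the 33 CpG-richer genes. The 2 groups overlapped, at 0.0133 to 40.7 RPKM for the 13 genes, with Acot1 highest, and 0.236 to 36.7 RPKM for the 33. All 13 were lower in KO, and 29 of the 33 were. The same split over all listed genes gave 82.1% lower among 1235 CpG-poor genes and 59.9% among 5595 CpG-richer ones, with median densities of 0.751 and 10.2 RPKM. The median differences of the 2 groups of the set were alike, -0.17 in each. The CpG-poor genes were Acaa1b, Acadvl, Acot1, Acot3, Acot4, Acot10, Acox2, Acsl5, Acsm1, Acsm2, Acsm5, Cpt1c and Ppargc1a.

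Short motifs were searched on both strands of the same windows as a description of their letters. The nuclear receptor half-site AGGTCA was in 12 of 56 windows (21.4%), from 10 genes, against 16.3% of all 32851 windows. A pair of such half-sites spaced by 1 base, AGGTCANAGGTCA, the form PPAR and RXR bind, were in 0 of 56 windows and in 0.0396% of all windows. The HNF4 motif CAAAGTCCA was also in 0 of 56 windows, against 0.475% of all. Both exact forms are so rare among all windows that 0 of 56 shows nothing about the set. TATAAA was in 5 of 56 windows (8.93%), from Acot4, Acot10, Acsm2, Pex14 and Pparg, against 13.6% of all windows. In the Acsm2 window above it covers positions 223 to 228, counted from the first base. A p53 half-site was in 1 window, that of Acss1 (1.79%), against 8.36% of all windows. Windows of the set held a median of 14 CpG, windows of all listed genes a median of 19 and all windows a median of 7. The motif shares are set against all windows, whether or not the gene is listed, and were not adjusted for these differences in composition. The half-site of nuclear receptors is part of the spaced form, so these counts overlap.

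Acyl-CoA synthetases, which start the pathway by activating fatty acids, had 11 listed genes. Of these 9 were lower in KO, against 63.8% of all listed genes, with a median difference of -0.15. After correction for GC content and length 10 were lower, against 75.6% of listed genes with a gene model. The long-chain form Acsl3 had the highest density of this group, 36.3 RPKM in KO and 34.3 RPKM in WT, a difference of 0.08 that became -0.17 after correction for GC content and length. Acsf2, a mitochondrial medium-chain synthetase, had 14.7 RPKM in KO and 18.3 RPKM in WT. Acsf3, which activates malonate in mitochondria, had 9.70 RPKM in KO and 11.5 RPKM in WT. The long-chain enzymes were thus divided. Acsl4 and Acsl3 were higher in KO on the main scale, while Acsl5 had 5.20 RPKM in KO and 5.87 RPKM in WT, and Acsl1 had 1.48 RPKM in KO and 1.69 RPKM in WT. For Acsl4, estimated at 2561 reads in KO and 1976 in WT, the ratio was 1.38 (95% interval 1.30 to 1.46), and its difference was 0.09 after the same correction. The acetate-activating enzymes were both lower: mitochondrial Acss1 had 0.501 RPKM in KO and 0.964 RPKM in WT, and Acss2 of cytosol and nucleus had 0.912 RPKM in KO and 1.14 RPKM in WT.

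The 3 medium-chain synthetases of the Acsm family lie side by side on chromosome 7, Acsm5 at chr7:119526304-119543793, Acsm2 at chr7:119554469-119600694 and Acsm1 at chr7:119607026-119662515, as the deposited coordinates give them. All 3 were under 1 RPKM in both libraries and lower in KO. Acsm2 was estimated at 73 reads in KO and 625 in WT, a ratio of 0.124 (95% interval 0.0963 to 0.159), or 8.08-fold lower. Acsm5 had 0.0081 RPKM in KO and 0.0874 RPKM in WT, about 3 reads in KO and 30 in WT, a ratio of 0.0926 (0.0208 to 0.343). Acsm1 was at 0 in KO and at 0.0704 RPKM in WT, about 14 reads, which makes it at least 4.38-fold lower against a floor of 3 reads per library. Their summed density was 0.122 RPKM in KO and 1.08 RPKM in WT, so the family as a whole contributed under 1 RPKM of the difference between the libraries.

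The carnitine shuttle was represented by 3 palmitoyltransferases. Cpt1a, the outer-membrane enzyme that sets the rate of entry, had 18.2 RPKM in KO and 16.8 RPKM in WT, a ratio of 1.09 (95% interval 1.06 to 1.11). Cpt2, its inner-membrane partner, went the other way with 11.6 RPKM in KO and 13.5 RPKM in WT, a ratio of 0.86 (0.814 to 0.908). Cpt1c, a form of neurons that resides in the endoplasmic reticulum, had 4.55 RPKM in KO and 6.53 RPKM in WT, a difference of -0.44. The entry enzyme was therefore not among the lower genes, and it remained higher in KO under each alternative scaling.

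Acyl-CoA dehydrogenases take the first oxidation step on chains of different length. All 5 listed ones were lower in KO, against 63.8% of all listed genes, with a median difference of -0.21. Acadm, the medium-chain enzyme, had 9.08 RPKM in KO and 12.1 RPKM in WT, a difference of -0.38. Acads, the short-chain enzyme, had the highest density of the family with 22.2 RPKM in KO and 26.4 RPKM in WT. Acadl, for long chains, had 13.7 RPKM in KO and 15.7 RPKM in WT. Acadvl, for very long chains, had 3.06 RPKM in KO and 3.56 RPKM in WT, and 24.0% of its 50-base windows also occur in transcripts of other genes, chiefly Dvl2 on the opposite strand. Acad10 had 0.358 RPKM in KO and 0.574 RPKM in WT, a ratio of 0.623 beside 0.748 for Acadm. Each of the 5 stayed lower after centring and after the GC and length correction. Etfb, the beta subunit of the flavoprotein that takes up the electrons of these enzymes, had 35.0 RPKM in KO and 38.5 RPKM in WT. Its difference of -0.13 was -0.0035 after the GC and length correction, and 67.3% of its windows are shared with an overlapping gene model.

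**Figure D2:**
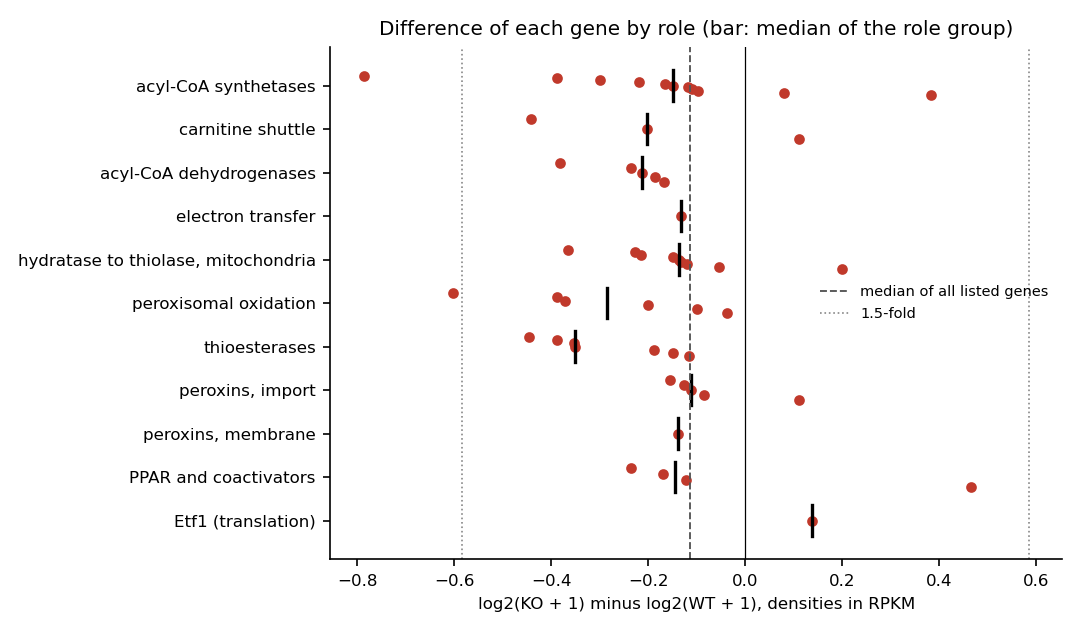
Difference of each gene on the log2(value + 1) scale, KO minus WT, by role group, with 1 library per genotype. Vertical bars are group medians, the dashed line is the median of all listed genes (-0.11) and the dotted lines mark 1.5-fold; Acsm2 (-0.79) and Acaa1b (-0.60) lie past the lower one, Ppargc1b (0.47) is the highest, and of the genes right of 0 Acsl3, Echdc1 and Etf1 fall left of it after GC and length correction.

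The 9 genes of the later mitochondrial steps had the highest summed density of the role groups, 141 RPKM in KO and 155 RPKM in WT. Acaa2, the mitochondrial thiolase that releases acetyl-CoA, had 58.5 RPKM in KO and 64.4 RPKM in WT, a ratio of 0.908 (95% interval 0.881 to 0.937). Hadh, the short-chain hydroxyacyl-CoA dehydrogenase, had 23.3 RPKM in KO and 24.2 RPKM in WT, a difference of -0.05 that became 0.018 after centring and 0.0011 with the authors' scaling. Eci1, an isomerase needed for unsaturated chains, had 18.6 RPKM in KO and 21.7 RPKM in WT. Of the 9 genes in this group 8 were lower, against 63.8% of all listed genes, with a median of -0.14. After centring 7 were lower, against 59% of all listed genes. After the GC and length correction 9 were, against 75.6% of listed genes with a gene model. The differences here were thus small and mostly in the direction that most listed genes took. Hadha, the alpha subunit of the trifunctional protein, had 11.6 RPKM in KO and 12.9 RPKM in WT, and Echs1, the short-chain hydratase, had 11.7 RPKM in KO and 12.8 RPKM in WT. Of the enzymes that handle double bonds, Ech1 had 6.33 RPKM in KO and 7.59 RPKM in WT, and Decr1 had 7.0 RPKM in KO and 7.76 RPKM in WT. Echdc3 had the lowest difference of the group at -0.36, with 1.12 RPKM in KO and 1.73 RPKM in WT. Echdc1, which removes the side product ethylmalonyl-CoA, had 2.51 RPKM in KO and 2.06 RPKM in WT, a difference of 0.20 that became -0.051 after the GC and length correction. For Echdc1 85.8% of the windows are shared with other genes, most of them with Rnf146 on the opposite strand, and whether counting used strand is not given in the sources used here.

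All 6 listed peroxisomal oxidation enzymes were lower in KO, against 63.8% of all listed genes. Their median difference was -0.29, and all but Acox2 were lower after centring and after the GC and length correction. The median was -0.15 for the 2 enzymes over the median density of the table, -0.17 with a pseudocount of 4 and -0.53 with none. The 2 most abundant, the isomerase Eci2 and the reductase Decr2, were among the least different: Eci2 had 10.1 RPKM in KO and 11.8 RPKM in WT, and Decr2 had 10.4 RPKM in KO and 11.2 RPKM in WT. Acaa1a, the main peroxisomal thiolase, had 5.19 RPKM in KO and 7.01 RPKM in WT, a ratio of 0.74 (95% interval 0.698 to 0.784). Its close copy Acaa1b, with about 72 reads in KO and 208 in WT, had a ratio of 0.366 (0.278 to 0.484). These genes lie near each other on chromosome 9, at chr9:119339676-119350299 and chr9:119148023-119157093, and 46.2% of the windows of Acaa1b also occur in other genes, most of them in Acaa1a, so reads could be split between them. Ehhadh, the bifunctional enzyme of the classical peroxisomal pathway and a well-known PPAR alpha target, had 1.29 RPKM in KO and 2.00 RPKM in WT, a ratio of 0.646 (0.562 to 0.742). Acox2, an oxidase of branched chains and bile acid precursors, was at 0 in KO and at 0.0266 RPKM in WT, about 9 reads, which is at least 2.82-fold lower against a floor of 3 reads per library; on the log2(value + 1) scale its difference of -0.04 became 0.034 after centring and 0.0016 after the GC and length correction.

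Thioesterases, which cut acyl-CoA back to free acid and coenzyme A, had 7 listed genes. All 7 were lower in KO, against 63.8% of all listed genes, with a median difference of -0.35. This median was -0.15 for the genes over the median density of the table, -0.12 with a pseudocount of 4 and -0.19 without genes at or under 1 RPKM. The cytosolic enzyme Acot1 had 39.0 RPKM in KO and 42.3 RPKM in WT. Acot13, a mitochondrial thioesterase of the hotdog-fold type, had 18.0 RPKM in KO and 23.9 RPKM in WT, a ratio of 0.754 (95% interval 0.699 to 0.814) and the lowest difference (-0.39) among the 26 genes of the set over the median density of the table. Acot2, a mitochondrial paralog of Acot1, had 11.3 RPKM in KO and 12.6 RPKM in WT. The abundant enzymes were thus lower by less than 1.5-fold. Acot10 had 5.55 RPKM in KO and 7.36 RPKM in WT, and Acot11 had 1.36 RPKM in KO and 1.69 RPKM in WT. Acot4 and Acot3 are peroxisomal and were far less abundant. Acot4 had 0.234 RPKM in KO and 0.681 RPKM in WT, 2.91-fold lower, and Acot3 had 0.112 RPKM in KO and 0.418 RPKM in WT, 3.73-fold lower.

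Acot2, Acot1, Acot4 and Acot3 lie in this order within chr12:83987861-84059565, all on the plus strand. Of the windows of Acot2 27.7% are shared with other genes, chiefly Acot1, and of those of Acot1 19.0%, chiefly with Acot2, so the split of reads between these neighbours is uncertain. Acot4 and Acot3 share 14.4% and 21.7% of their windows, mostly with overlapping gene models and other Acot genes. Their summed density was 50.6 RPKM in KO and 56.1 RPKM in WT. Between neighbours in this cluster the ratio differed widely, at 0.894 (95% interval 0.843 to 0.947) for Acot2, 0.921 (0.899 to 0.942) for Acot1, 0.344 (0.281 to 0.419) for Acot4 and 0.268 (0.177 to 0.396) for Acot3. The intervals of the peroxisomal pair do not overlap those of the other 2 genes.

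Peroxins differed little between the libraries. Of 6 listed peroxins 5 were lower in KO, against 63.8% of all listed genes, with a median of -0.12. None differed by as much as 0.32 in either direction. After the GC and length correction Pex7 did, at -0.37. Pex19, the chaperone that brings membrane proteins to the peroxisome, had 34.0 RPKM in KO and 37.5 RPKM in WT. Pex2, a ring-finger subunit of the ubiquitin ligase that recycles the import receptor, had 26.1 RPKM in KO and 24.1 RPKM in WT, a ratio of 1.08 (95% interval 1.04 to 1.13), and was the 1 peroxin that was higher. Pex5, the receptor for most matrix enzymes, had 19.1 RPKM in KO and 20.3 RPKM in WT. Pex6, an ATPase that pulls the receptor back out of the membrane, had 16.8 RPKM in KO and 18.2 RPKM in WT. Pex14, the docking protein, had 8.27 RPKM in KO and 9.11 RPKM in WT, and Pex7, the receptor for a smaller class of enzymes including the thiolases, had 2.78 RPKM in KO and 3.21 RPKM in WT. The 6 peroxins spanned -0.16 to 0.11.

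Of the regulators, Ppard had the highest density, 6.74 RPKM in KO and 7.70 RPKM in WT, a ratio of 0.875 (95% interval 0.841 to 0.911). It is the PPAR receptor expressed in most tissues. Pparg, known from fat cells, was at 0.135 RPKM in KO and 0.337 RPKM in WT, about 34 reads in KO and 91 in WT, a ratio of 0.402 (0.26 to 0.596). The 2 coactivators went opposite ways. Ppargc1a, the coactivator most closely tied to mitochondrial biogenesis, had 0.473 RPKM in KO and 0.604 RPKM in WT, a ratio of 0.783 (0.666 to 0.92). Ppargc1b was estimated at 1474 reads in KO and 1037 in WT, a ratio of 1.51 (1.40 to 1.64), and its difference of 0.47 was 0.54 after the GC and length correction. Ppargc1b was the highest gene of the set and the only one past 1.5-fold higher by the plain ratio. Etf1, the translation termination factor, had 73.1 RPKM in KO and 66.3 RPKM in WT, and its difference of 0.14 became -0.030 after the GC and length correction. Without Etf1 the count was 46 lower of 52 genes.

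The size of the difference went with the level of the gene, but the make-up of the table bears on this. Every listed gene passed the authors' corrected p-value of 0.05, which a gene with few reads passes only at a wide ratio. Wider plain ratios at low density are therefore no result about the set. The 26 genes over the median density of the table, 7.29 RPKM, spanned -0.39 to 0.14 on the log2(value + 1) scale, and 24 of them differed by less than 0.32 in either direction. The other 2 were lower. Most listed genes over the same level were also within 0.32, as 390 of 5314 were lower and 269 higher by at least that much. Of these 26 genes 22 were lower, against 55.8% of the listed genes over the same level, with a median of -0.13 against -0.07. Among the 27 genes under that level 24 were lower, against 71.9% of listed genes under it. By the plain ratio, without the added 1, 12 of these 27 genes were at least 1.5-fold lower, against 42.5% of listed genes under that level. This plain ratio was chosen after the data had been seen. The 12 genes were Acaa1b, Acad10, Acot3, Acot4, Acox2, Acsm1, Acsm2, Acsm5, Acss1, Echdc3, Ehhadh and Pparg, and their share lies near the background. The 10 genes at or under 1 RPKM in both libraries were all lower, and their summed density was 1.94 RPKM in KO and 4.69 RPKM in WT. Those of them with few reads are listed only because the libraries differed widely. The share lower among all listed genes at this level is not given here, so this count and sum are no result about the set.

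**Figure D3:**
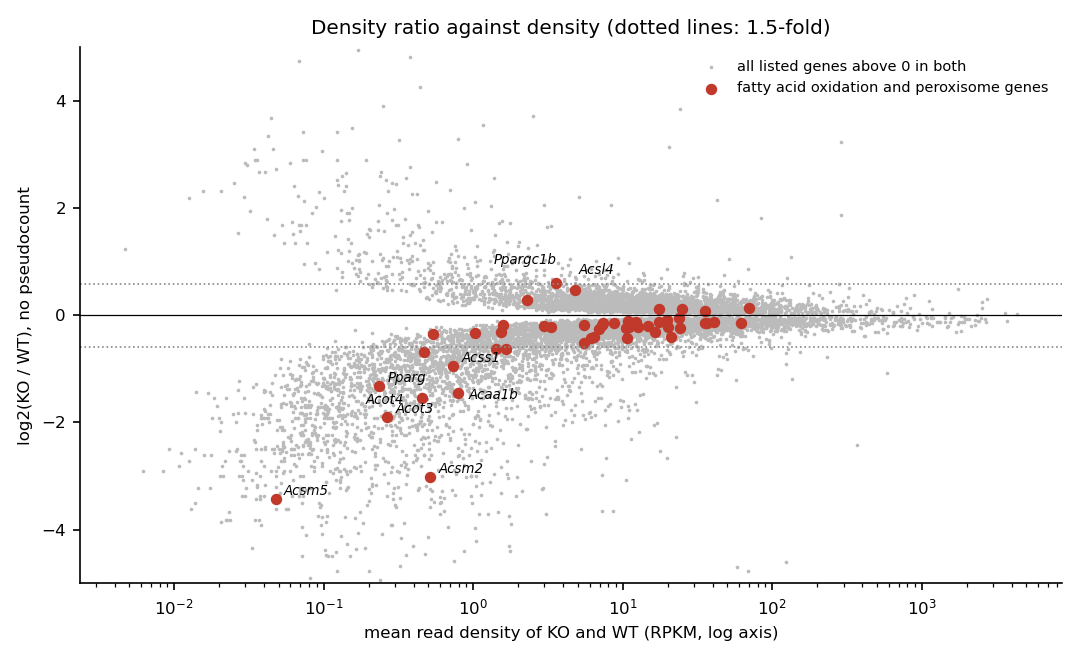
Plain log2 ratio of KO to WT against the mean read density of both libraries (RPKM, log axis) for the genes of the set (large points) and all listed genes above 0 in both libraries (small points), with dotted lines at 1.5-fold; a few listed genes lie beyond the vertical limits, and Acsm1 and Acox2, at 0 in KO, are not drawn. Genes of the set with a mean density over 7.29 RPKM stay between the dotted lines, and the widest ratios, those of Acsm5 (0.0926) and Acsm2 (0.124), are at low densities. Genes with few reads are listed only at wide ratios, as every listed gene passed the authors' corrected p-value.

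Markers of other cell types were lower in KO together with these low-density genes. Of the 11 proximal tubule markers listed 10 were lower, 8 of them at least 1.5-fold, with a median of -1.27 and a summed density of 21.9 RPKM in KO and 72.4 RPKM in WT; Slc34a1, the phosphate transporter of the proximal tubule, had 1.07 RPKM in KO and 13.4 RPKM in WT. All 12 stromal markers were lower, with sums of 85.8 RPKM in KO and 223 RPKM in WT, as were all 12 ureteric bud markers, with 46.0 RPKM in KO and 61.7 RPKM in WT. All 10 endothelial markers were lower, with sums of 2.55 RPKM in KO and 8.57 RPKM in WT. The 8 listed erythroid markers summed to 23.9 RPKM in KO and 631 RPKM in WT, and the 8 listed leukocyte markers to 2.00 RPKM in KO and 15.1 RPKM in WT, all 16 of them lower. No marker was at 0 in KO. Proximal tubule is known to express Acsm2, Acaa1b and Ehhadh strongly after birth, and the part of these cells in the result was not tested. In such bulk libraries fewer cells of a type and less RNA per cell cannot be told apart.

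GC content moved with the difference as well. Across the 53 genes the Spearman correlation of the difference with the GC content of the longest transcript was -0.22, and it was -0.35 across the 26 genes over the median density; across 10515 listed genes with a gene model it was -0.42. These are descriptions across genes that share both libraries. The listed genes were put into 5 groups of equal size by GC. In the group with the lowest GC the median difference was 0.08 for 7 genes of the set and 0.15 for all listed genes, and in the group with the highest GC it was -0.22 for 7 genes of the set and -0.19 for all. The 3 groups between them gave -0.15, -0.15 and -0.18 for 12, 13 and 14 genes of the set, against -0.03, -0.12 and -0.16 for all. The median GC was 43.2% for the 7 higher genes and 51.1% for the 46 lower ones. After correction for GC content and length 48 of the 53 genes were lower, against 75.6% of the listed genes with a gene model, and the median was -0.17. After centring on the median of genes over 7.29 RPKM, 44 were lower, against 59% of all listed genes. The part of GC content in the result was not tested further.

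**Figure D4:**
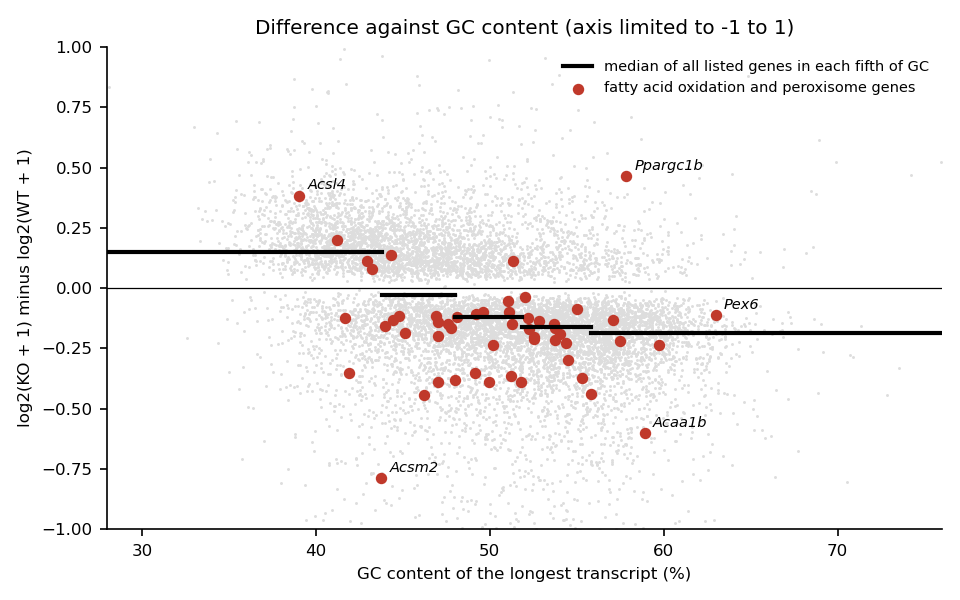
Difference on the log2(value + 1) scale, KO minus WT, against the GC content of the longest transcript (%) for the genes of the set (large points) and all listed genes (small points, vertical axis limited). Black lines are medians of all listed genes in 5 groups by GC and go down from 0.15 at low GC to -0.19 at high GC; Acsl4, with the lowest GC of the set (39.0%), lies high, and Ppargc1b (57.8%) lies far above the line of its group.

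Of the 53 genes 38 share at most 10% of their 50-base windows with transcripts of other genes. Of these 38 genes 32 were lower in KO, against 63.8% of all listed genes. Exons of 20 of the 53 genes are overlapped by another gene, in 18 cases by one on the opposite strand. The set is spread over 20 chromosomes.

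Related genes outside the naming rule were taken from lists of the same pathways. Of 86 such genes 57 were listed. Of these 49 were lower in KO, against 63.8% of all listed genes, with a median of -0.16 against -0.11. Among 16 further genes of mitochondrial oxidation and transport 15 were lower, with a median of -0.18. Dbi, the acyl-CoA binding protein, had 6.50 RPKM in KO and 8.53 RPKM in WT, and Gcdh, the glutaryl-CoA dehydrogenase, had 11.1 RPKM in KO and 14.3 RPKM in WT. At the other end Oxct1, the ketone-body transferase, had 55.3 RPKM in KO and 59.3 RPKM in WT, and Crat, carnitine acetyltransferase, was the 1 gene that was higher, with 4.90 RPKM in KO and 4.09 RPKM in WT. These oxidation genes outside the naming rule, a list chosen with earlier results of these data known, thus stood close to the set.

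Of 16 other peroxisome genes 12 were lower, against 63.8% of all listed genes, with a median of -0.17. Slc27a2, the very long-chain acyl-CoA synthetase and transporter of liver and proximal tubule, had 0.136 RPKM in KO and 1.39 RPKM in WT, a difference of -1.07. Pxmp2, a pore protein of the peroxisomal membrane, had 2.27 RPKM in KO and 3.0 RPKM in WT. In the other direction Far1, the fatty acyl-CoA reductase of ether lipid synthesis, had 8.51 RPKM in KO and 6.15 RPKM in WT, a difference of 0.41 that was 0.12 after the GC and length correction. Acbd5, which tethers peroxisomes to the endoplasmic reticulum, had 5.35 RPKM in KO and 4.25 RPKM in WT, a difference of 0.28 that became -0.032 after that correction.

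Fatty acid synthesis, the opposite pathway, was lower to a like extent. Of 13 listed genes 12 were lower, against 63.8% of all listed genes, with a median of -0.16 against -0.11. After centring 10 were lower, against 59% of all listed genes, with a median of -0.084. Scd1, a desaturase, had 4.43 RPKM in KO and 6.87 RPKM in WT, and Elovl7, an elongase, had 0.144 RPKM in KO and 0.488 RPKM in WT. Acly, which makes cytosolic acetyl-CoA, had 30.0 RPKM in KO and 31.3 RPKM in WT, and Elovl4, another elongase, had 5.01 RPKM in KO and 4.12 RPKM in WT. Oxidation genes and synthesis genes therefore did not go opposite ways in these libraries, in which most listed genes were lower in KO.

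Of 12 PPAR partners and targets 10 were lower, against 63.8% of all listed genes, with a median of -0.12. Fabp4, a fatty acid carrier of fat cells, endothelium and macrophages, had 1.14 RPKM in KO and 3.67 RPKM in WT, a difference of -1.13, and Angptl4, a secreted inhibitor of lipoprotein lipase, had 1.70 RPKM in KO and 2.75 RPKM in WT. Pdk4, the kinase that shuts off pyruvate dehydrogenase when fat is burned, had 2.73 RPKM in KO and 1.61 RPKM in WT, a difference of 0.52 that was 0.35 after the GC and length correction. Ucp3, an uncoupling protein of muscle, had 0.0484 RPKM in KO and 0.0105 RPKM in WT. Pdk4 and Ucp3 were the 2 higher genes of this list, and Ucp3 was near 0 in both libraries.

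**Figure D5:**
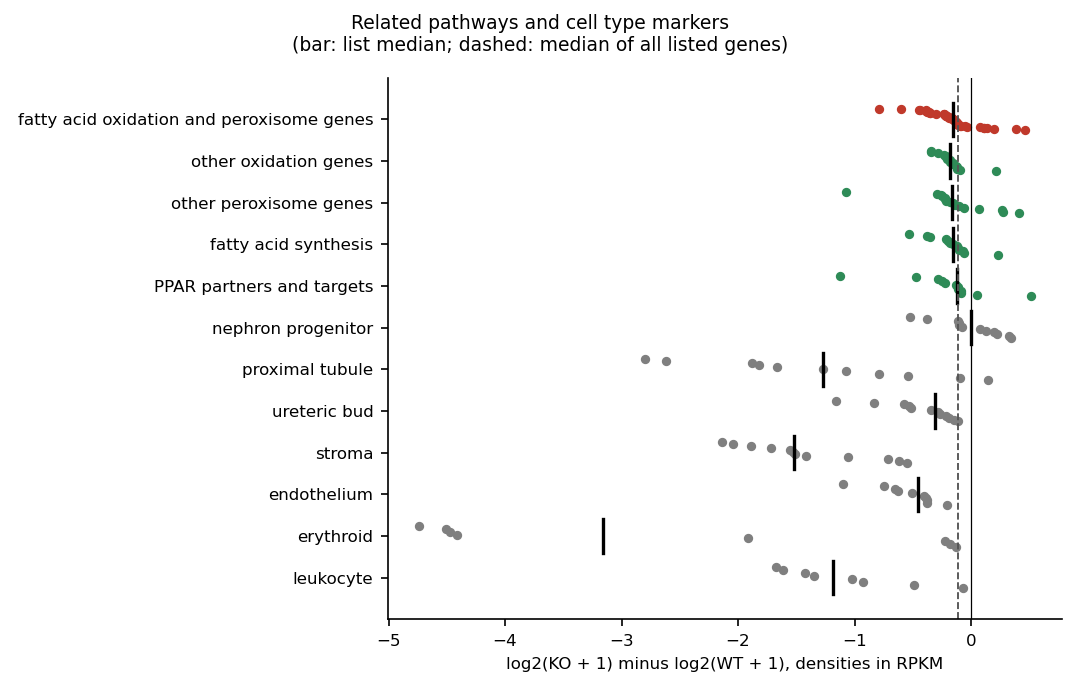
Difference of each gene on the log2(value + 1) scale, KO minus WT, for the 53 genes of the set, 4 lists of related genes and 7 lists of cell type markers, with bars at list medians and a dashed line at the median of all listed genes (-0.11). The set and the related lists have medians between -0.18 and -0.12. The nephron progenitor markers spread from -0.53 to 0.35 with a median of 0.0015. The tubule, stromal, erythroid and leukocyte markers have medians of -1.27, -1.52, -3.16 and -1.19.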

How the data were processed

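RNA was extracted from sorted cap mesenchyme cells of each genotype and libraries were made with standard Illumina methods, per the labels' protocols. Per the submitters' processing notes the tools were CASAVA 1.8, Novoalign 2.08.02 and FastQC and the builds GRCm38 and mm10, without their roles. How reads were counted, and whether strand or multiple alignments mattered, is not given in the sources used here. Columns of the deposited table, per the file headers, are a read density for each library, the authors' p-value and its corrected form, a fold change as a ratio, and the fold change with a sign (a score, below 0 for genes lower in KO). The authors' read density was taken as RPKM on the strength of its values, as no header names the unit. The authors' p-values compare 2 libraries, not genotypes, and served only to learn which genes are listed; the largest corrected one is 0.0499827. The authors' fold ratio is the density ratio times 1.04.

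The measure was log2(KO + 1) minus log2(WT + 1), with a size rule of 1.5-fold and no test. Depth was inferred from genes at 0 in 1 library. There are 171 at 0 in KO and 75 at 0 in WT, and for 150 and 70 of them the fold was a whole multiple of 1 step, to 0.01 of a read. Length then gave 1 constant to 0.5% for 48 of 67 with a gene model for KO depth and 100 of 149 for WT depth. Reads estimated from density, merged exon length and depth gave exact (Clopper-Pearson) 95% intervals, which are approximate. Gene models came from GENCODE vM21, with 10515 of 10627 listed genes matched, 10511 of these at the deposited place, and all 53 genes of the set. Shared sequence was counted in 50-base windows of the longest transcript. The GC and length correction subtracted the median of genes in the same of 10 GC and 4 length bins, then restored the overall median. Promoter windows are from RefSeq. Of the library columns, 0 were left unmapped.

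The set, the role groups, the related lists, the markers and the alternatives were chosen with earlier results of these data known. Named genes were, per role group, the 3 with the highest density, the 2 lowest and the 2 highest differences, all members of groups of 5 or fewer, and genes at 0 in 1 library, plus the 2 lowest and 2 highest of each related list. Any further gene in the text was picked once its values were known. Alternatives were other pseudocounts, size rules, centring, the authors' scaling, the floor at the median density and the GC and length correction. Scripts were tested on simulated data and run in Python 3.11.15 with pandas 2.3.3, numpy 2.4.6, scipy 1.17.1 and matplotlib 3.10.9.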

Additional observations from a re-analysis of the deposited data

How the results depend on the processing

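The median difference of the set was -0.16 in the main measure, -0.084 after centring and -0.10 with a pseudocount of 4, and it stayed below 0 under every alternative run. Between 44 and 48 of the 53 genes were lower under the alternatives that kept them all, 36 were without the genes at or under 1 RPKM in both libraries, and 22 of 26 were over the median density. The count of genes at least 1.5-fold lower, 2 in the main measure, was 6 with a pseudocount of 0.25, 0 with a pseudocount of 4, 1 after centring, 1 with the authors' scaling, 1 after the GC and length correction, 0 over the median density, 12 at a bar of 0.32 on the log2 scale and 0 at 2-fold. It was 12 with no pseudocount and 1 without genes at or under 1 RPKM, 2 alternatives chosen after seeing the data. The count at least 1.5-fold higher, 0 in the main measure, was 1 with no pseudocount and 2 at the bar of 0.32. Of all 10627 listed genes 5.5% were lower and 0.96% higher in the main measure, and 15.9% and 5.63% at the bar of 0.32. With no pseudocount 22.6% were lower and 467 genes higher. Over the median density 129 of 5314 listed genes were lower. For the other alternatives no share of all listed genes is given here, so those counts describe the set alone. Single values that changed sign were Acox2 (0.034 after centring, 0.0016 after the GC and length correction), Hadh (0.018 after centring, 0.0011 with the authors' scaling), and Acsl3 (-0.17), Echdc1 (-0.051) and Etf1 (-0.030) after the GC and length correction. The median of the regulators was 0.15 without the genes at or under 1 RPKM, since only Ppard and Ppargc1b remain. The cause of the other shifts was not tested. Of 316 single-gene values under alternatives, 239 kept their sign and moved by less than the distance from the middle of their counting interval to its bounds, on the log2 scale. Depth limits the 7 genes with under 100 reads in KO. No paired analysis was possible because there is 1 library per genotype.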
